A study of Felis catus with 6 samples.

Results

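DERL3, TNFRSF17 and SLAMF7 are genes that antibody-secreting plasma cells use, and their RNA was followed here in the oral mucosa of cats with feline chronic gingivostomatitis (FCGS), a severe chronic inflammation of the mouth. The 3 genes were chosen by symbol, as 3 of 21529 identifiers measured, and each symbol was found to match exactly 1 identifier. All 3 passed the filter on low values, as did 13327 identifiers in all, and 1929 of these carry a symbol. The identifiers are ENSFCAG00000004069 for DERL3, ENSFCAG00000010116 for TNFRSF17 and ENSFCAG00000003892 for SLAMF7.

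Plasma cells are the end stage of the B cell lineage, and they make antibody in such amounts that the endoplasmic reticulum, where secreted proteins are folded, fills much of the cell. DERL3 belongs to the derlins, membrane proteins that help to move misfolded proteins out of the endoplasmic reticulum for destruction. TNFRSF17, also known as BCMA, is the receptor through which plasma cells receive survival signals from the ligands APRIL and BAFF. SLAMF7 is a surface receptor of the SLAM family, best known on plasma cells but in humans also carried by natural killer cells and by some activated T cells and myeloid cells. When B cells become plasma cells they lose CD20, the surface protein encoded by MS4A1, so MS4A1 serves as the B cell gene set beside the 3.

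The study asked which genes differ in RNA between FCGS lesions and neighbouring healthy mucosa. The lesion group held 3 biopsies of diseased mucosa and the healthy group 3 biopsies of adjacent healthy mucosa, 1 of each from the cats named Bart, Jerome and Sadie in the labels. All of the cats had lost their teeth to extraction, had lesions that did not respond to it, and received the pain drug buprenorphine but no immunosuppressive treatment, so the healthy mucosa is that of diseased animals and not of cats without FCGS. Values are FPKM, fragments scaled to transcript length and library size. How far FPKM of different genes can be compared as levels was not tested.

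FPKM summed to between 1382122 and 1767520 in the lesion libraries and between 1429495 and 1903773 in the healthy libraries. The study's methods give an approximate number of reads per sample, but the number behind each library is unknown. Of 11 plasma cell markers listed, 5 had a symbol in the files at hand: the 3 genes, the transcription co-factor gene POU2AF1 and the surface proteoglycan gene SDC1. None of the 5 was listed at 0 in any library. For the epithelium only KRT4 of 6 markers had a symbol, and it was listed at 0 in the healthy mucosa of Jerome and Sadie, where an exact 0 can be a failed estimate. The 22 named genes of a skeletal muscle list summed to 58.1, 6807 and 6027 FPKM in the lesions of Bart, Jerome and Sadie, and to 22.3, 47.8 and 2951 FPKM in their healthy mucosa. Muscle RNA was thus high in 3 of 6 libraries, and its part in the values below was not tested.

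DERL3, TNFRSF17 and SLAMF7 were each more abundant in the lesion than in the healthy mucosa of the same cat, in 3 of 3 cats, by 3.98-fold to 30.5-fold, a direction that 28.6% of all identifiers tested shared. In none of the 3 genes did the lesion and healthy libraries overlap, a separation that 16.7% of all identifiers tested had in this direction. A difference of at least 2-fold in every cat, which all 3 genes had, was met by 8.81% of identifiers. Only genes that differed 2-fold or more in the study carry symbols, so a large difference was partly fixed by that selection. Of the 1929 named genes, 60.2% were higher in the lesion of every cat, and 878 had no overlap in this direction. The change passed the test across all identifiers for DERL3 alone when the libraries were treated as independent, and for all 3 genes when the cat was a block. In bulk tissue, fewer cells of a type and less RNA per cell cannot be told apart, so these values do not say which of them differed.

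DERL3 had 50.1, 129 and 229 FPKM in the lesions of Bart, Jerome and Sadie, against 8.29, 22.7 and 7.501 FPKM in their healthy mucosa. The lesion of Sadie was the highest and its healthy counterpart the lowest, so that this cat had the widest gap, and the lowest lesion still lay above the highest healthy library. The mean of DERL3 was 136 ± 89.5 FPKM in lesions, against 12.8 ± 8.54 FPKM in the healthy mucosa (SD, n = 3 each). On the log2 scale, with values below 1 FPKM raised to 1, the lesion exceeded the healthy mucosa by 2.59 in Bart, 2.51 in Jerome and 4.93 in Sadie, which are folds of 6.04, 5.69 and 30.5. The mean difference of 3.34 (SE 0.68, 95% confidence interval 1.70 to 4.99) passed limma's test at a Benjamini-Hochberg adjusted p of 0.034, and at 0.029 with the cat as a block. Of 13327 differences it ranked 97 from the highest, beside 61 for TNFRSF17 and 122 for SLAMF7.

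TNFRSF17 had the highest mean FPKM of the 3 genes in both tissues. It had 139, 357 and 657 FPKM in the lesions of Bart, Jerome and Sadie, against 6.69, 89.8 and 23.9 FPKM in their healthy mucosa. The order of the lesions was that of DERL3, but among the healthy libraries Jerome stood far above the others, and it came closer to the lowest lesion than any other healthy library. The means were 385 ± 260 FPKM in lesions, against 40.2 ± 43.9 FPKM in the healthy mucosa (SD, n = 3 each), and in the healthy group the SD was larger than the mean. The folds were 20.8 in Bart, 3.98 in Jerome and 27.5 in Sadie. The mean log2 difference of 3.72 (SE 1.03, 95% confidence interval 1.22 to 6.22) did not pass limma's test across independent libraries (Benjamini-Hochberg adjusted p = 0.066) and passed it with the cat as a block (SE 0.62, adjusted p = 0.029). Ranked by level among the 13327 identifiers, TNFRSF17 stood at 797, 363 and 215 in the lesions of Bart, Jerome and Sadie, or within the top 5.98%, 2.72% and 1.61%. In healthy mucosa it stood at 63.8%, 9.65% and 32.0% from the top.

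SLAMF7 had the lowest FPKM of the 3 genes in every library. It had 10.5, 28.4 and 21.1 FPKM in the lesions of Bart, Jerome and Sadie, against 0.755, 6.40 and 1.31 FPKM in their healthy mucosa. Here the lesion of Jerome, not that of Sadie, was the highest, and the healthy mucosa of Jerome was again the highest of its group without reaching the lowest lesion. The means were 20.0 ± 8.99 FPKM in lesions, against 2.82 ± 3.11 FPKM in the healthy mucosa (SD, n = 3 each). The healthy value of Bart lay under the floor of 1 FPKM, so the fold in this cat was 10.5 with the floor and 13.9 without it, beside 4.44 in Jerome and 16.2 in Sadie. The mean log2 difference was 3.19 (SE 0.78, 95% confidence interval 1.28 to 5.09), with a Benjamini-Hochberg adjusted p of 0.051 from limma, just outside the threshold of 0.05, and of 0.023 with the cat as a block (SE 0.42).

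**Figure D1:**
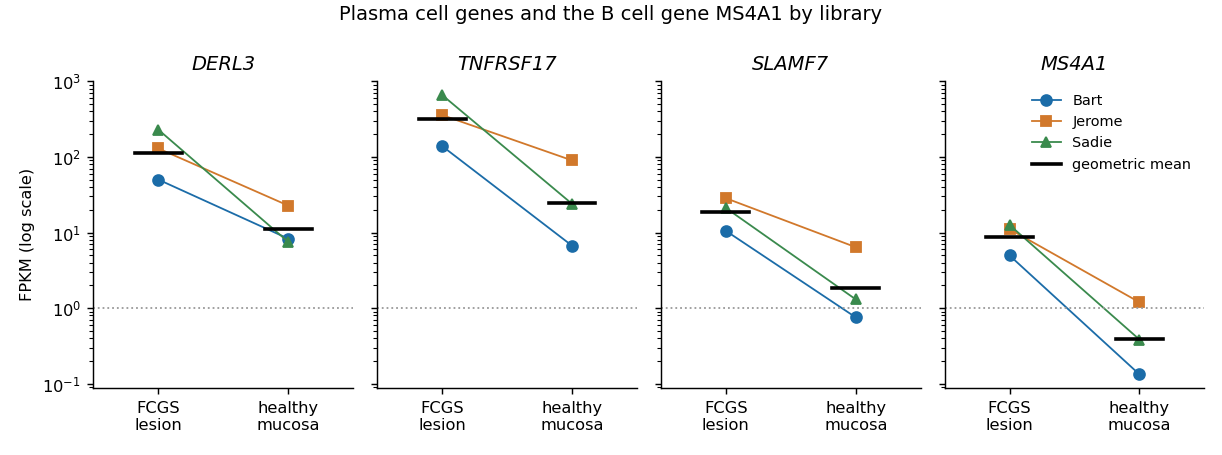
FPKM (log axis) of DERL3, TNFRSF17, SLAMF7 and the B cell gene MS4A1 in FCGS lesions and healthy mucosa, with a point for each library, a line joining both libraries of a cat, a bar at the geometric mean and a dotted line at the floor of 1 FPKM. Every line descends towards healthy mucosa and no lesion library lies below a healthy one. The healthy mucosa of Jerome is the highest healthy library in all 4 panels.

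Thus 1 of 3 genes passed in the fit with independent libraries, where 5.31% of all 13327 identifiers were called higher in lesions. With the cat as a block 3 of 3 passed, where 12.2% of identifiers were called higher. Among named genes, from which the 3 come, these shares were 21.1% and 46.1%. A test of each gene alone over the 6 libraries, by exact permutation, gave p = 0.1 for each of the 3, which is the smallest value that 3 against 3 libraries allow. The call for DERL3 depended on single libraries. It held without the lesion of Bart (limma, Benjamini-Hochberg adjusted p = 0.035) and without both libraries of Bart (0.041). It was lost without the healthy mucosa of Bart (0.079), the lesion (0.083) or healthy mucosa (0.062) of Jerome, both libraries of Jerome (0.15), the lesion (0.104) or healthy mucosa (0.105) of Sadie, or both libraries of Sadie (0.26). Leaving out the healthy mucosa of Jerome brought SLAMF7 past the threshold (4.02 on the log2 scale, adjusted p = 0.048). The direction was the same without any of the libraries or cats.

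MS4A1 was low in the healthy mucosa and reached the middle of the range only in the lesions of Jerome and Sadie. It had 4.97, 11.1 and 12.6 FPKM in the lesions of Bart, Jerome and Sadie, against 0.133, 1.195 and 0.384 FPKM in their healthy mucosa. The groups did not overlap, and in the healthy mucosa of Bart and Sadie the level lay under the floor of 1 FPKM. Its mean log2 difference with the floor was 3.06 (SE 0.41), with a Benjamini-Hochberg adjusted p of 0.021 from limma, so the B cell gene rose as well. With a pseudocount of 0.1 in place of the floor the difference was 4.09 (adjusted p = 0.031). The MS4A1 call was lost without the healthy mucosa of Jerome (adjusted p = 0.056), both libraries of Jerome (0.14), the lesion (0.085) or healthy mucosa (0.077) of Sadie, or both libraries of Sadie (0.26).

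Each plasma cell gene was then divided by MS4A1 in the same library, to see whether the 2 kinds of gene kept their proportion. With the floor of 1 FPKM on both, DERL3 was 10.1, 11.6 and 18.2 times MS4A1 in the lesions of Bart, Jerome and Sadie, against 8.29, 19.0 and 7.501 times in healthy mucosa. The ratio was higher in the lesion of Bart and Sadie and lower in that of Jerome, by a mean log2 change of 0.28 ± 0.99 (SD over 3 cats, exact permutation p = 0.6, two-sided). TNFRSF17 was 27.9, 32.2 and 52.3 times MS4A1 in lesions, against 6.69, 75.1 and 23.9 times in healthy mucosa, a change of 0.66 ± 1.69 (SD over 3 cats, exact permutation p = 0.7). SLAMF7 was 2.12, 2.56 and 1.68 times MS4A1 in lesions, against 1.00, 5.35 and 1.31 times in healthy mucosa, a change of 0.13 ± 1.09 (SD over 3 cats, exact permutation p = 0.9). For all 3 genes the healthy libraries lay on both sides of the lesions, and the change in Jerome had the opposite sign to those in Bart and Sadie. The permutation treats the libraries as unpaired. An exact sign-flip test of the within-cat changes gave p = 0.75 for each of the 3 genes.

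The floor decided the sign of these changes, because it raised the denominator in the healthy mucosa of Bart and Sadie. With FPKM as deposited, DERL3 was 62.3, 19.0 and 19.5 times MS4A1 in the healthy mucosa of Bart, Jerome and Sadie, above all of the lesions, and the mean log2 change was -1.15 ± 1.32 (SD over 3 cats, exact permutation p = 0.1). SLAMF7 was 5.68, 5.35 and 3.40 times MS4A1 there, also above all of the lesions, with a change of -1.17 ± 0.22 (SD over 3 cats, exact permutation p = 0.1). For TNFRSF17 the healthy ratios of 50.3, 75.1 and 62.3 overlapped those of the lesions, and the change was -0.78 ± 0.49 (SD over 3 cats, exact permutation p = 0.2). With values as deposited the ratio was thus lower in the lesion of every cat for all 3 genes, whereas with the floor it was not. The deposited healthy ratios of Bart and Sadie divide by MS4A1 at 0.133 and 0.384 FPKM. These levels ranked 98.7% and 98.4% from the top of their libraries, and how precise they are is unknown. A p of 0.1 is the smallest that 3 against 3 libraries allow. The exact sign-flip test of the within-cat changes gave p = 0.25 for each of the 3 genes, the smallest that 3 cats allow.

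Another B cell gene gave other proportions. CD79A, which encodes a signalling chain of the B cell receptor, had 151, 447 and 1114 FPKM in the lesions of Bart, Jerome and Sadie, against 11.04, 86.1 and 29.6 FPKM in their healthy mucosa, well above the floor. TNFRSF17 divided by CD79A was 0.918, 0.798 and 0.590 in lesions, against 0.606, 1.04 and 0.807 in healthy mucosa. This ratio stayed within 0.590 to 1.04 over libraries in which TNFRSF17 itself varied 98.2-fold, and its mean log2 change was -0.080 (exact permutation p = 0.7). DERL3 changed by -0.45 relative to CD79A (exact permutation p = 0.7) and SLAMF7 by -0.61 (p = 0.5). The profile of CD79A was also among the named ones nearest to TNFRSF17, as given below. Whether CD79A RNA came from B cells or from plasma cells was not tested, so these ratios do not set the 2 cell types apart.

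Set against CD3E and CSF1R, 1 gene each of T cells and macrophages, the plasma cell genes were relatively higher in the lesion of every cat. Of the named CD3 chains CD3E had the smallest log2 difference, and ratios to other T cell or macrophage genes were not taken. DERL3 was 1.31, 1.42 and 2.07 times CD3E, a T cell receptor chain, in the lesions of Bart, Jerome and Sadie, against 0.544, 0.738 and 0.192 times in healthy mucosa. TNFRSF17 was 3.62, 3.93 and 5.95 times CD3E in lesions, against 0.439, 2.93 and 0.611 times in healthy mucosa. For both genes the groups did not overlap, with log2 changes of 1.88 and 2.25 (exact permutation p = 0.1 each). For SLAMF7 the groups overlapped, and the change was 1.72 (exact permutation p = 0.2). The changes relative to CSF1R, the receptor for a macrophage growth factor, were 1.47 for DERL3 (exact permutation p = 0.1), 1.85 for TNFRSF17 (p = 0.2) and 1.32 for SLAMF7 (p = 0.2). Each was above 0 in every cat, but for TNFRSF17 and SLAMF7 the groups overlapped. For the ratios to CD3E and to CSF1R alike, the exact sign-flip test of within-cat changes gave p = 0.25 for each of the 3 genes.

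**Figure D2:**
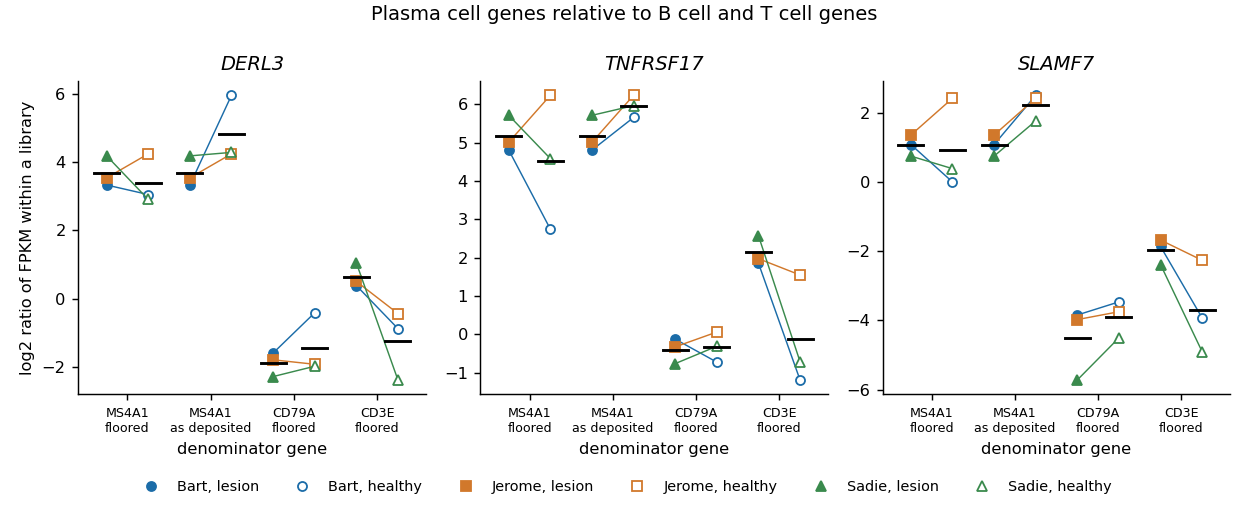
Log2 ratio of DERL3, TNFRSF17 and SLAMF7 to each denominator gene on the horizontal axis, with filled points for FCGS lesions, open points for healthy mucosa, a line joining both libraries of a cat and a bar at the mean of each group. Relative to MS4A1 the lines of Bart and Sadie descend to healthy mucosa with the floor of 1 FPKM and ascend with values as deposited, and relative to CD3E all lines descend.

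The 3 genes were also set against each other. TNFRSF17 was 2.78, 2.77 and 2.88 times DERL3 in the lesions of Bart, Jerome and Sadie, against 0.808, 3.96 and 3.19 times in their healthy mucosa. The 3 lesions were thus nearly equal, while the healthy mucosa of Bart stood apart as the only library with less TNFRSF17 than DERL3. The mean log2 change of this ratio was 0.37 (exact permutation p = 1). SLAMF7 divided by DERL3 was 0.210, 0.220 and 0.0923 in lesions, against 0.121, 0.282 and 0.174 in healthy mucosa, so the groups overlapped (log2 change -0.16, exact permutation p = 0.7). The lesion of Sadie had the least SLAMF7 for its DERL3 of all libraries with the floor of 1 FPKM, while as deposited the healthy mucosa of Bart had slightly less (0.0911).

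The profiles of the 3 genes over the 6 libraries were then compared with those of all named genes. Likeness was measured as the root-mean-square distance between log2 profiles, each centred on its own mean, where 0 is an identical profile. The nearest named genes to DERL3 were BEX5 (0.234), EAF2 (0.260), MEF2B (0.263), FCRL2 (0.337) and POU2F2 (0.368). EAF2 encodes a transcription elongation factor, MEF2B a transcription factor of germinal centre B cells, FCRL2 a B cell surface protein related to Fc receptors and POU2F2 the factor OCT2, which drives immunoglobulin genes. Of the genes with profiles at least as near as the fifth, 4 had no symbol.

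The nearest to TNFRSF17 were NCF1 (0.287), a subunit of the NADPH oxidase, CD79A (0.297), TMIGD1 (0.330), CAMK2B (0.493) and the complement factor D gene CFD (0.503), with 12 unnamed identifiers at least as near. The nearest to SLAMF7 was SCIMP (0.244), an adaptor protein of antigen-presenting cells, which was also the nearest of all 13327 identifiers. It had 7.54, 17.99 and 19.2 FPKM in the lesions of Bart, Jerome and Sadie, against 0.207, 6.10 and 1.23 FPKM in the healthy mucosa. POU2F2 (0.406), IL21R (0.412), RHOH (0.446) and CLEC6A (0.473) followed, with 5 unnamed identifiers at least as near. DERL3 lay 0.742 from TNFRSF17 and 0.546 from SLAMF7, and TNFRSF17 lay 0.663 from SLAMF7. None of the 3 genes thus had another of the 3 among its nearest. The B cell gene MS4A1 lay nearer to DERL3 (0.516) than either of the other members did. From TNFRSF17 (1.09) and SLAMF7 (0.774) it lay farther than the other members did. These distances rest on 6 libraries that share 3 cats and the same contrast.

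**Figure D3:**
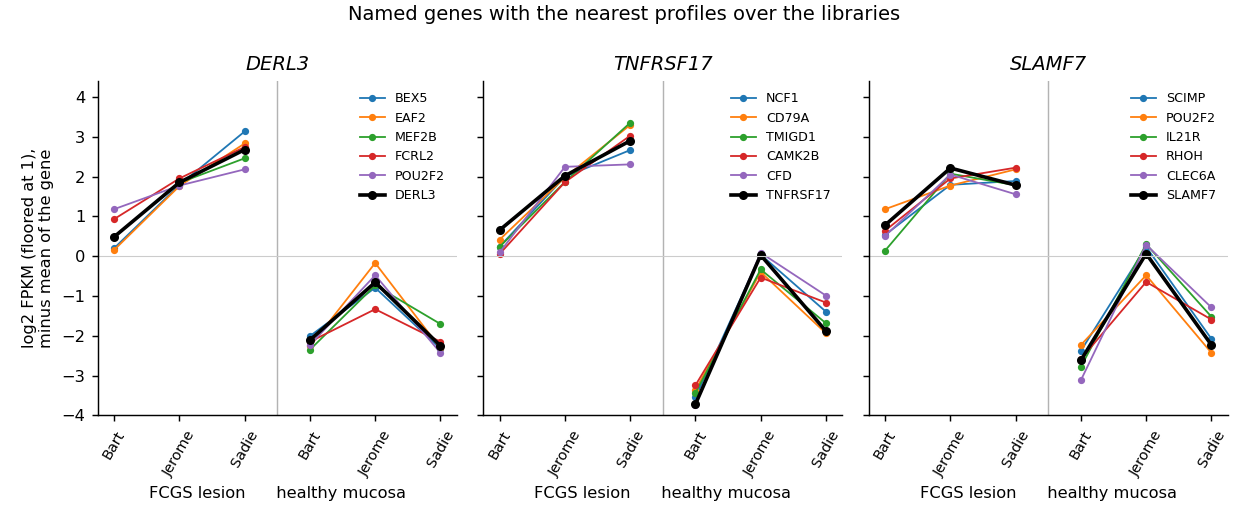
Log2 FPKM (floored at 1) minus the mean of each gene, in the 3 FCGS lesion and 3 healthy mucosa libraries, for DERL3, TNFRSF17 and SLAMF7 (black) and the 5 named genes with the nearest profiles (colours). The healthy mucosa of Jerome is the highest healthy library for each gene drawn, and among lesions DERL3 and TNFRSF17 peak in Sadie while SLAMF7 peaks in Jerome.

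Few of the other genes of antibody secretion could be followed. Of 55 listed genes of plasma cells and antibody secretion, 19 had a symbol, the 3 genes among them. Without the 3, 14 of 16 were higher in the lesion of every cat, as were 60.2% of all named genes. Of the 19, 6 rose in lesions, 0 fell and 13 did not pass, and with the cat as a block 14 rose. The median log2 difference of the 19 was 1.76, beside -0.065 over all identifiers tested. Without the 3 genes, 5 of 16 rose, and 11 with the block, with a median of 1.68. Only genes that differed 2-fold or more in the study carry symbols, and of these 21.1% rose, or 46.1% with the block, and the strongest falls are among those without one. These counts therefore lean towards rises and are not independent evidence of direction, and a listed gene without a symbol is not an unchanged gene.

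Among the factors that switch on the plasma cell programme, POU2AF1, which works with OCT2 on immunoglobulin genes, had 66.8, 437 and 524 FPKM in the lesions of Bart, Jerome and Sadie, against 3.71, 78.0 and 7.40 FPKM in the healthy mucosa. The healthy mucosa of Jerome exceeded the lesion of Bart, so the groups overlapped. The log2 difference of 4.27 (SE 1.33) had a Benjamini-Hochberg adjusted p of 0.086 from limma, and 0.031 with the block. BHLHA15, or MIST1, a factor of secretory cells, had 7.05, 51.1 and 72.8 FPKM in lesions, against 0.117, 5.98 and 2.03 FPKM in the healthy mucosa. Its log2 difference was 3.69 (limma, adjusted p = 0.071, or 0.024 with the block).

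In the endoplasmic reticulum, the genes that rose were TRAM2, of the translocation channel, HSP90B1 and PDIA4, a chaperone and a disulphide isomerase, PRDX4, a peroxiredoxin, and the stress-responsive transcription factor gene CREB3L2. TRAM2 had 42.1, 57.0 and 68.9 FPKM in the lesions of Bart, Jerome and Sadie, against 6.37, 13.6 and 1.97 FPKM in the healthy mucosa, a log2 difference of 3.31 (limma, Benjamini-Hochberg adjusted p = 0.037). The others rose by less, by 1.39 (HSP90B1), 1.63 (CREB3L2), 1.76 (PDIA4) and 1.95 (PRDX4) on the log2 scale, with adjusted p of 0.034 to 0.047. With the cat as a block the call for HSP90B1 was lost (adjusted p = 0.052). SEC11C, the signal peptidase subunit, had 80.0, 213 and 310 FPKM in lesions, against 43.3, 83.5 and 53.9 FPKM in the healthy mucosa (log2 difference 1.59, adjusted p = 0.106, or 0.048 with the block). The stress sensor gene ERN1, the TNF receptor family gene CD27 and CCPG1, which acts in clearance of the endoplasmic reticulum, had log2 differences of 1.73, 1.37 and 1.55 (adjusted p = 0.17, 0.32 and 0.067), and with the block CD27 and CCPG1 passed (adjusted p = 0.024 and 0.037).

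FKBP11 and SDC1 stood apart. FKBP11, a prolyl isomerase of secretory cells, had 135, 457 and 570 FPKM in the lesions of Bart, Jerome and Sadie, against 142, 187 and 94.1 FPKM in their healthy mucosa, so in Bart the 2 tissues were nearly equal (limma, adjusted p = 0.20). SDC1, which encodes the plasma cell marker CD138 but is also strongly expressed in squamous epithelium, had 83.5, 347 and 270 FPKM in lesions, against 680, 611 and 641 FPKM in the healthy mucosa. It was the only named gene of the list with a negative difference (-1.70, limma, Benjamini-Hochberg adjusted p = 0.088). COL17A1, a gene of basal epithelial cells, fell by 2.25 as a log2 difference (limma, adjusted p = 0.038, where 6.61% of identifiers were called lower). Of 5 named epithelial genes, SDC1 among them, it alone passed. LAMA3 and LAMB3 had differences of -1.54 and -1.89. KRT4 went the other way by 4.20, with 8.99, 2534 and 569 FPKM in the lesions of Bart, Jerome and Sadie. In their healthy mucosa KRT4 had 2089, 0 and 0 FPKM. The part of epithelium in the SDC1 values was not tested.

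**Figure D4:**
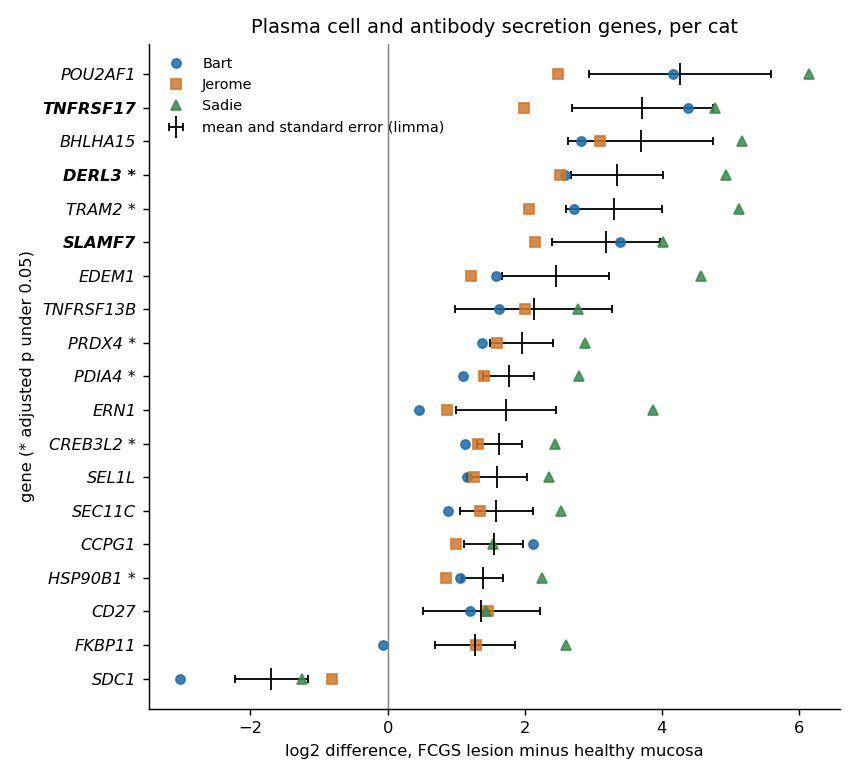
Log2 difference, FCGS lesion minus healthy mucosa, for the 19 named genes of plasma cells and antibody secretion, with a point for each cat, a cross at the mean with its limma standard error, and an asterisk where the adjusted p was under 0.05. SDC1 (-1.70) is the only gene with a mean below 0, and the members DERL3 (3.34), TNFRSF17 (3.72) and SLAMF7 (3.19) lie among the largest differences beside POU2AF1 (4.27) and BHLHA15 (3.69).

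Around TNFRSF17, of 11 listed ligands, receptors and signalling genes of the BAFF and APRIL system only TNFRSF17 and TNFRSF13B had symbols, and neither ligand was among them. TNFRSF13B, or TACI, the other receptor for both ligands, had 3.09, 28.3 and 32.4 FPKM in the lesions of Bart, Jerome and Sadie, against 0.275, 7.08 and 4.75 FPKM in the healthy mucosa. The lesion of Bart was lower than the healthy mucosa of Jerome and of Sadie, so the groups overlapped, though each cat had more in its lesion. The log2 difference was 2.13 (limma, Benjamini-Hochberg adjusted p = 0.26, or 0.024 with the block).

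Around SLAMF7, 7 of 12 listed genes of the SLAM family and its adaptors had symbols. Of these 2 rose (28.6%, beside 21.1% of all named genes), 0 fell and 5 did not pass, and with the cat as a block 7 of 7 rose (beside 46.1% of named genes), with a median log2 difference of 1.96. SLAMF6, a receptor of T, B and natural killer cells, had 11.9, 10.2 and 8.74 FPKM in the lesions of Bart, Jerome and Sadie, against 0.977, 3.66 and 0.812 FPKM in the healthy mucosa (log2 difference 2.72, limma, Benjamini-Hochberg adjusted p = 0.035). SLAMF1, a self-binding receptor of lymphocytes, rose by 1.96 (adjusted p = 0.046). CD48, the widely expressed ligand of CD244, had 81.9, 112 and 106 FPKM in lesions, against 8.30, 38.2 and 25.7 FPKM in the healthy mucosa (2.30, adjusted p = 0.051, or 0.029 with the block), and CD244 itself differed by 1.11 (adjusted p = 0.19, or 0.033 with the block). SLAMF7 had the largest difference of the 7. In the RefSeq annotation of the cat SLAMF7 lies between LY9 and CD48, in a row of family genes that also holds CD244, SLAMF1 and CD84, and the sources used here do not say how reads shared by related genes were assigned.

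Around DERL3, 4 of 20 listed genes of the derlins and of degradation from the endoplasmic reticulum had symbols, and DERL1 and DERL2 did not. DERL3 rose, which is 25% of the 4, beside 21.1% of all named genes. The other 3 did not pass in the fit with independent libraries. With the block 3 of the 4 rose, beside 46.1% of named genes. SEL1L, the adaptor of the membrane ubiquitin ligase, had 28.3, 53.8 and 81.6 FPKM in the lesions of Bart, Jerome and Sadie, against 12.7, 22.4 and 15.9 FPKM in the healthy mucosa, with no overlap (log2 difference 1.59, limma, Benjamini-Hochberg adjusted p = 0.065, or 0.034 with the block). ERLEC1, a lectin that recognises misfolded glycoproteins, differed by 1.39 (adjusted p = 0.051, or 0.027 with the block). EDEM1, a mannosidase that marks them, had 58.8, 59.4 and 76.5 FPKM in lesions, against 19.7, 25.5 and 3.23 FPKM in the healthy mucosa, and did not pass in either fit (2.45, adjusted p = 0.090 and 0.086). The healthy mucosa of Sadie was the lowest library for EDEM1, as it was for DERL3 and TRAM2.

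Of 24 listed homing and survival signals of plasma cells, 12 had symbols, of which 8 rose and 0 fell, and with the block 12 of 12 rose. Of all named genes 21.1% rose, or 46.1% with the block, and only genes that differed 2-fold or more in the study carry symbols. CXCL12, a chemokine of the stromal niches in which plasma cells reside, had 603, 320 and 480 FPKM in the lesions of Bart, Jerome and Sadie, against 129, 133 and 177 FPKM in the healthy mucosa (log2 difference 1.65, limma, Benjamini-Hochberg adjusted p = 0.026). Its receptor gene CXCR4 rose by 2.28 (adjusted p = 0.025), and the genes of the mucosal homing integrin, ITGA4 and ITGB7, by 2.20 and 1.80 (adjusted p = 0.020 and 0.025). IL10, CD28, CD80 and CD86 rose by 1.89 to 2.48. The list is not particular to plasma cells, as CD28 also stands in the T cell list. Which cells the RNA of the listed genes came from was not tested. The plasma cell growth factor IL6 had 1224, 328 and 25.0 FPKM in lesions, against 118, 28.5 and 0.828 FPKM in the healthy mucosa. It was highest in Bart and lowest in Sadie in both tissues, the reverse of the order of DERL3 and TNFRSF17 in lesions, and its log2 difference of 3.85 had an adjusted p of 0.27, or 0.022 with the block.

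Genes of other immune cells were compared in the same way, beside the 21.1% of all named genes that rose, or 46.1% with the block. Of 18 named B cell genes of 33 listed, 10 rose and 0 fell, or 15 rose with the block, with a median log2 difference of 2.17. FCRL2, RASGRP3 and PIK3AP1 were, with MS4A1, those with the smallest p (limma, Benjamini-Hochberg adjusted p = 0.021 to 0.025). The named T cell genes summed to 242, 506 and 640 FPKM in the lesions of Bart, Jerome and Sadie, against 65.4, 181 and 158 FPKM in the healthy mucosa, and 1 of 10 rose, or 10 of 10 with the block. The named cytotoxic and natural killer cell genes summed to 153, 504 and 445 FPKM in lesions, against 62.1, 146 and 193 FPKM in the healthy mucosa, and 0 of 8 rose, or 7 with the block. Those of macrophages and dendritic cells summed to 1107, 1791 and 1735 FPKM in lesions, against 252, 582 and 405 FPKM in the healthy mucosa, and 6 of 12 rose, or 12 with the block.

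In these sums Bart was the lowest of the lesions, and it was also the lowest lesion for DERL3, TNFRSF17 and SLAMF7. The healthy mucosa of Jerome had the highest T cell and macrophage sums of its group and the highest DERL3, TNFRSF17 and SLAMF7. The lesion sums did not overlap the healthy sums for T cell or macrophage genes, and they did for cytotoxic genes. SLAMF7 is not particular to plasma cells, and the parts of T cells, cytotoxic cells and macrophages in its values were not tested.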

How the data were processed

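RNA was measured in 6 libraries, as paired lesion and healthy biopsies of 3 cats. The authors deposited FPKM for each library, made with Cuffnorm, and the submitters' processing notes also name bcl2fastq, HISAT and Cufflinks, without versions. Reads were aligned to a genome build not given in the sources used here. The labels describe strand-marked libraries of polyadenylated RNA and single reads, whereas the study's methods describe paired reads. FPKM are already divided by length and library size, so no count model was used, and the depth of each library is unknown. Among values under 0.1 FPKM, 1 read was worth 1.76 times as much in the lesion of Sadie as in the healthy mucosa of Bart, if values were scaled by reads alone.

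A floor of 1 FPKM was set before taking log2. Of all identifiers, 13327 reached 1 FPKM in 3 libraries or more and entered a two-sided limma fit (version 3.58.1, R 4.3.3) on tissue alone, using its mean-variance trend, with p-values adjusted by Benjamini-Hochberg over all of them. The fit on tissue alone was also run on simulated data without cat effects, which does not test the fit with the block. Ratios were tested by exact permutation over libraries (Python 3.11.15, scipy 1.17.1, numpy 2.4.6, pandas 2.3.3), and figures used matplotlib 3.10.9. P-values of the fit on tissue alone rest on the spread between libraries within a tissue, and those with the block on the spread of within-cat differences. The permutation ignores the pairing, which the sign-flip test keeps. All of them rest on these 3 cats.

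The labels give both biopsies of a pair to the same cat. Deviations from tissue means correlated across genes within a cat at 0.49 (Bart), 0.20 (Jerome) and 0.41 (Sadie), and between cats at -0.44 to 0.27.

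Symbols came from a gene table of the study that holds tissue values: all 1981 entries matched exactly 1 identifier to 5 significant digits, and 1929 were used, after leaving out 47 with fewer than 3 values above the floor and 5 symbols turned into dates. Fold changes in that table were not used. The RefSeq gene table matched none of the identifiers and served only for the order of neighbouring genes.

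The genes and lists were chosen with earlier results of these data known. Named are the 3 genes, MS4A1 and the denominators, members with a symbol of 5 lists (antibody secretion, BAFF and APRIL, SLAM family, derlins, homing and survival), up to 4 of each other list with the smallest p, and the 5 nearest profiles of each gene. COL17A1 was the only epithelial gene to pass. Alternatives were the block, other pseudocounts, no filter, quantile and median-of-ratios scaling, no trend, and leaving out each library or cat. The denominators CD3E and CSF1R, ratios of values as deposited, ratios between the 3 genes, and list counts under each alternative were added after seeing the data. Ratios to 1 further denominator gene are not reported here.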

Additional observations from a re-analysis of the deposited data

How the results depend on the processing

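Of the 13327 identifiers, 707 were higher and 881 lower in lesions (limma). With the cat as a replicate block these were 1622 and 1476, with no filter on low values 205 and 321, and without single libraries or cats 0 to 1036 and 0 to 1100. DERL3 kept its log2 difference of 3.34 with no filter but not its call (adjusted p = 0.087), and ranged from 2.55 to 3.94 without single libraries or cats. With the block TNFRSF17 (3.72) and SLAMF7 (3.19) passed, and SLAMF7 also passed on the log2(FPKM + 1) scale (2.66, adjusted p = 0.048) and with median-of-ratios scaling (3.27, adjusted p = 0.048). Without single libraries or cats they ranged from 2.78 to 4.66 and from 2.68 to 4.02. Of 56 named genes in the plasma cell, B cell, BAFF, SLAM, derlin and homing lists, 26 were called, 48 with the block, 3 with no filter and 0 to 31 without single libraries or cats, and none changed sign. Of all 1929 named genes, 407 rose and 275 fell, and with the block 890 rose and 425 fell. The plasma cell list had 0 to 7 calls without single libraries or cats, and 0 without either library of Sadie, the lesion of Jerome, or both libraries of Jerome or of Sadie.

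Relative to MS4A1, the log2 change of DERL3 reversed to -0.76 with a pseudocount of 0.1, to -1.15 as deposited and to -0.45 with CD79A in place of MS4A1, and ranged from -0.21 to 0.78 without single cats. That of TNFRSF17 reversed to -0.38, -0.78 and -0.080, with a range of -0.047 to 1.59. That of SLAMF7 reversed to -0.86, -1.17 and -0.61, and to -0.062 with a pseudocount of 1, with a range of -0.35 to 0.72. Without single cats, TNFRSF17 relative to DERL3 ranged from -0.33 to 0.82, SLAMF7 relative to DERL3 from -0.64 to 0.22, and SLAMF7 relative to TNFRSF17 from -0.87 to -0.30. The block could not change a direction or a log2 difference, because each cat has 1 library of each tissue. Among genes given by level or profile only, it brought CD79A, CD3E, IL21R, EAF2, NCF1, TMIGD1, CAMK2B, CFD, SCIMP and CLEC6A past the threshold (limma, adjusted p = 0.022 to 0.048). The unknown depth of each library and the number of 3 cats limit the precision.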
